A study of Rattus norvegicus with 23 samples.

Results

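The genes that make, sense, store and export cholesterol were followed through the hepatocytes, sinusoidal endothelial cells (LSECs) and resident macrophages (Kupffer cells, KCs) of rat liver cultures. The set holds 37 genes, given by name: enzymes of the synthesis pathway, the regulators that read the sterol content of the cell, proteins of uptake, intracellular transport and ester storage, exporters with their lipoprotein partners, and the liver X receptors (LXRs) with a target. A probe set of the array was used where its only annotated gene was a member, and a gene with several was read from its brightest, by the mean of the 23 arrays. All 37 were found, among 14217 genes measured in this way.

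RNA of 23 samples was hybridised to Affymetrix rat arrays in 8 groups, with 3 arrays in each except for the KCs of the larger 3D model, which had 2. Primary hepatocytes were taken at day 12 from hepatocyte monolayers (HM), from collagen sandwiches (CS), from a 3D model that joins hepatocytes and LSECs across a detachable polymer membrane (3DHL), and from the same model with KCs added (3DHLK). LSECs at day 12 came from both 3D models and KCs at day 12 from the 3DHLK model, each pulled out with magnetic beads that carry antibodies, while KC monolayers were taken at day 3 before any 3D culture. Hepatocytes and LSECs were isolated from female Lewis rats, the KCs were purchased as frozen cells, no group was treated with a compound, and the labels do not say whether the arrays of a group come from separate animals, so that each p-value covers only the variation among these samples, which may be technical. All values are log2 expression values after robust multi-array averaging (RMA), in which the authors corrected background and brought all arrays to 1 distribution. A difference of 1 on this scale is a 2-fold change, and values of different genes are not compared because probe sets differ in brightness. No detection calls came with the values, so it is unknown how far a signal lies over background, and precision rests on the few arrays of a group.

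Cell type markers were checked first. The mean of 11 hepatocyte markers was 13.36 in HM, 13.60 in CS, 12.90 in 3DHL hepatocytes and 12.88 in 3DHLK hepatocytes. It was as high in the LSEC fractions, at 13.37 and 13.58, and 12.70 in the 3DHLK KC fraction, but 7.55 in KC monolayers. Endothelial markers, 11 genes, averaged 6.27 and 6.50 in the LSEC groups of 3DHL and 3DHLK, against 6.19 in HM, 6.52 in CS, 6.34 in 3DHL hepatocytes and 7.01 in 3DHLK hepatocytes. Stab2, Kdr and Vwf, which define endothelium, lay between 5.81 and 6.12 in both LSEC groups. They lay between 5.31 and 5.85 in the hepatocytes of both 3D models and between 5.45 and 6.02 in HM and CS. Each was a little higher in the LSEC fraction than in the hepatocytes of the same model. Fcgr2b, a receptor of sinusoidal endothelium and macrophages, was at 6.40 and 7.36 in the LSEC groups of 3DHL and 3DHLK. It was at 4.80 in HM, and at 6.74 and 7.44 in the hepatocytes of 3DHL and 3DHLK. The mean of 10 macrophage markers was 7.35 in 3DHLK KCs and 12.09 in KC monolayers. Apart from the small differences in Stab2, Kdr and Vwf, these measurements go against the labels of the fractions taken from the 3D models. Those fractions are therefore called by the label of the fraction. In bulk samples fewer cells of a type and less RNA per cell cannot be told apart. Hepatocyte comparisons below hold no LSEC or KC array in their groups, and they were also fitted with those arrays left out. Stellate cell and fibroblast markers, 12 genes, had array means that ranged from 6.54 to 8.63 over the HM arrays, 8.06 to 9.42 in CS, 8.14 to 8.49 in 3DHL hepatocytes and 10.36 to 10.42 in 3DHLK hepatocytes, and 6.26 to 6.59 over the LSEC arrays.

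Cholesterol is built from acetyl-CoA through mevalonate and isoprenoid units to squalene, which is closed to lanosterol and trimmed to cholesterol. When sterols are scarce in the endoplasmic reticulum, Scap carries the Srebf proteins to the Golgi, where they are cut and freed to activate the genes of the whole pathway, while Insig proteins hold Scap back when sterols are plentiful. Oxysterols from excess cholesterol activate the LXRs, which raise the exporters Abca1, Abcg1, Abcg5 and Abcg8, the Srebf1 gene and Mylip, a ligase that marks lipoprotein receptors for degradation. The liver runs all of these branches, since it makes cholesterol, clears it from plasma and secretes it into bile.

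The start regions of members that moved together in the hepatocyte cultures were read from the RefSeq promoter table for build GRCr8, 250 bases before to 50 after the transcription start, all on the minus strand in the genome except Ggps1. Of the 37 members 31 had an entry, while Pmvk, Fdft1, Sqle, Stard4, Scarb1 and Abcg1 had none and were not searched. The 4 first sequences are those of members with wide rises in CS, and the last is that of Ggps1, the single synthesis enzyme that did not rise there. They lie at chr4:8057720-8058019 (Insig1), chr17:66547475-66547774 (Idi1), chr20:12118181-12118480 (Lss), chr13:84722705-84723004 (Hsd17b7) and chr17:55958500-55958799 (Ggps1), each around the annotated start of the gene and so in upstream sequence and first exon. Capitals mark the CCAAT box on either strand, which reads ATTGG where it lies on the other strand. The sequences are written 5′ to 3′ in the direction of the gene.
Insig1: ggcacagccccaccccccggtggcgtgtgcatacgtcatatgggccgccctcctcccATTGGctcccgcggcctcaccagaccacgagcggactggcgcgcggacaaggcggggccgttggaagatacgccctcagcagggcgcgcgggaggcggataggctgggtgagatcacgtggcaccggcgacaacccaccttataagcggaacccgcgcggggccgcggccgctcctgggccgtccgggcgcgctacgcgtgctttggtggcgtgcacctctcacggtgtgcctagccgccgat
Idi1: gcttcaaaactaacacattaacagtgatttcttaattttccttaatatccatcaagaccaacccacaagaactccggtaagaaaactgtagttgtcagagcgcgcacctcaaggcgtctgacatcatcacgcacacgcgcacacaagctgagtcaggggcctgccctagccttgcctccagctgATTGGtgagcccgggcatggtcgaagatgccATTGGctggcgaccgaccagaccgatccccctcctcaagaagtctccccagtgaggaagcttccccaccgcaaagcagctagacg
Lss: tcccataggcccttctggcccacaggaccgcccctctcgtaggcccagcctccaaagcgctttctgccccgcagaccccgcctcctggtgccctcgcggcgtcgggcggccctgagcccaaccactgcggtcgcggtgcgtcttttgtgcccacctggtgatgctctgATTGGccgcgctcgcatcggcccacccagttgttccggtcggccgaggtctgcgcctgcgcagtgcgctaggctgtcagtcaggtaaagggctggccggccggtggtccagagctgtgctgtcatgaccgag
Hsd17b7: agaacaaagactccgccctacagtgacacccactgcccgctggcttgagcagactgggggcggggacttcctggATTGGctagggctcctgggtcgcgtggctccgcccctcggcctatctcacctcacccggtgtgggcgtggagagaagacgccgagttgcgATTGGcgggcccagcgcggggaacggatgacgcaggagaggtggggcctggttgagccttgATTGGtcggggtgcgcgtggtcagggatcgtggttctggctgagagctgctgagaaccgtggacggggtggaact
Ggps1: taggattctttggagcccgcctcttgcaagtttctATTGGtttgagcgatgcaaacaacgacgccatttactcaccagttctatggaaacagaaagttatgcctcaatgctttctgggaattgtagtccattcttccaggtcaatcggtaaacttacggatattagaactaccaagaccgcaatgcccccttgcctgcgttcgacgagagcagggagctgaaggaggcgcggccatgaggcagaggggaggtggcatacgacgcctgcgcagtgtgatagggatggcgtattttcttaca

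CCAAT is the letters bound by the NF-Y complex, a partner of Srebf proteins. Searched on both strands, it was present in 76.5% of the 34 promoters of members (Apoe and Srebf1 have several), against 36.8% of the promoters of all genes measured and 37.5% of all 33469 promoters of the table. Among the 15 synthesis enzymes with an entry 12 held it, and Acat2, Cyp51 and Dhcr7 did not. The share was 80% among the promoters of synthesis enzymes and 73.7% among those of the other members, and Ggps1, which did not rise in CS, holds a match too. GGGCGG, the box of Sp1, was in 67.6% of member promoters and 55.7% of those of genes measured, and the E-box CACGTG in 11.8% and 8.62%. None of the 47 CCAAT matches overlapped either of these. The letters TCACNCCAC of a sterol regulatory element were in none of the 34 and in 1.07% of promoters of genes measured. A share this low leaves an absence from 34 promoters uninformative. A match is a description of letters and not a site.

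Across the 4 hepatocyte cultures the members followed one leading pattern, with the highest level in CS. Of the 37 members 33 differed among the 4 cultures (limma moderated F test, Benjamini-Hochberg adjusted p under 0.05), where 43.7% of all genes did. Of these 33, 27 had their highest mean in CS, 3 in 3DHLK hepatocytes, 2 in HM and 1 in 3DHL hepatocytes. The lowest mean lay in 3DHLK hepatocytes for 16 and in HM for 11. Where all genes had their highest and lowest means was not counted. The range of the 4 culture means had a median of 0.89 over the members and 0.44 over all genes. Abca1, Abcg8, Nr1h2 and Scap did not pass the test, with ranges of 0.35, 0.14, 0.32 and 0.35. Fitted to the 12 hepatocyte arrays alone, 34 members passed. The share of all genes was not counted in this or any later alternative fit.

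The 18 synthesis enzymes moved almost as 1 group. Their mean per array was 9.67 ± 0.05 in HM, 10.46 ± 0.22 in CS, 9.75 ± 0.09 in 3DHL hepatocytes and 9.63 ± 0.03 in 3DHLK hepatocytes (SD, n = 3 each). All 3 CS arrays, at 10.24 to 10.68, were above every other hepatocyte array, of which the highest was a 3DHL array at 9.85. CS also held the widest spread of the 4 cultures, with 10.24, 10.68 and 10.45, and the HM arrays ran from 9.61 to 9.71.

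**Figure D1:**
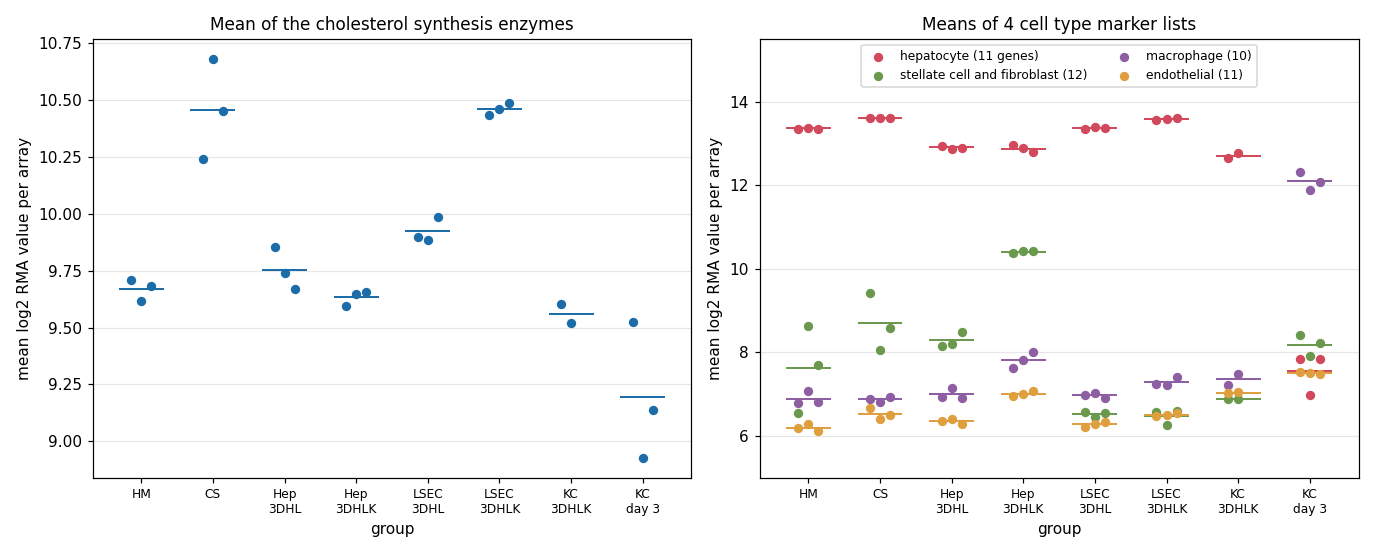
Points are single arrays, bars are group means, and the vertical axes are mean log2 RMA values, for the 18 synthesis enzymes (left) and for 4 marker lists (right) in the 8 groups. The CS and LSEC 3DHLK arrays, both with means of 10.46, stand above the other groups on the left, and the LSEC and KC fractions of the 3D models carry hepatocyte markers at 12.70 to 13.58 on the right.

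CS against HM asks how a collagen overlay changes hepatocytes that otherwise share a flat culture. Of the 37 members 24 were higher in CS and 2 lower, while 11.1% of all genes were higher and 10.7% lower, and the median change of the members was 0.74 against 0.04 over all genes. Fitted to the hepatocyte arrays alone, 25 were higher and 3 lower. All 11 squalene and sterol enzymes rose, by 0.44 to 1.37, and 6 of the 7 mevalonate enzymes rose, by 0.74 to 1.06. The rise of Sc5d, a sterol desaturase and at 0.44 the smallest, was lost on leaving out any 1 of the 6 arrays, and that of Dhcr7 without CS replicate 2. Ggps1, which makes the geranylgeranyl chain for protein prenylation and so stands on a side branch, had a change of -0.11 and did not pass. Stellate cell and fibroblast markers were also higher in CS, 8 of 12 with a median change of 0.80, and 3 of 11 hepatocyte markers were. Of the endothelial markers 4 of 11 were higher and 1 lower, with a median of 0.09, and 1 of 10 macrophage markers was higher. The part of any of these cells in the enzyme changes was not tested. Stellate markers spanned 2.09 on the log2 scale over the HM arrays and 1.37 over the CS arrays, and the enzyme mean spanned 0.09 and 0.44.

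In the mevalonate arm the widest culture ranges belonged to Idi1, Mvd and Pmvk. Idi1, the isomerase of the isoprenoid units, had 9.33, 9.14 and 9.09 in HM, 10.19, 10.32 and 9.95 in CS, 9.04, 8.73 and 8.63 in 3DHL hepatocytes, and 8.43, 8.68 and 9.05 in 3DHLK hepatocytes. The CS arrays stood above all others, and HM lay between CS and the 3D hepatocytes, although the changes of -0.39 and -0.47 in the 3D cultures against HM did not pass. Mvd, the decarboxylase that makes the first of those units, had 7.60, 7.69 and 7.83 in HM, 8.37, 9.08 and 8.85 in CS, 7.96, 8.03 and 7.82 in 3DHL hepatocytes, and 7.56, 7.70 and 7.79 in 3DHLK hepatocytes. Its rise in CS was 1.06 ± 0.17 (SE, adjusted p 9.05e-05), with no overlap between CS and any other hepatocyte culture. Pmvk, the kinase before it, had 9.69, 9.62 and 9.71 in HM, 10.38, 10.70 and 10.58 in CS, 10.02, 9.86 and 9.82 in 3DHL hepatocytes, and 9.76, 9.89 and 9.76 in 3DHLK hepatocytes. It was lowest in HM and overlapped between both 3D cultures. Acat2, Mvk and Fdps, the other enzymes on the main line, rose in CS by 0.74, 0.74 and 0.75, though 1 of the other probe sets of Mvk, at 0.47, did not pass.

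In the sterol arm Hsd17b7, a ketoreductase that also acts on estrone, moved most in CS, by 1.37 ± 0.23 (SE, adjusted p 0.000144), a 2.58-fold rise. Its values were 6.94, 6.53 and 6.82 in HM, 7.53, 8.80 and 8.06 in CS, 7.19, 7.27 and 6.67 in 3DHL hepatocytes, and 6.91, 7.19 and 7.30 in 3DHLK hepatocytes. The CS arrays spread over more than a log2 unit, with the lowest at 7.53 only a little above the highest 3D array at 7.30. Lss, the cyclase that forms lanosterol, had 8.49, 8.34 and 8.55 in HM, 9.38, 9.78 and 9.46 in CS, 8.67, 8.39 and 8.25 in 3DHL hepatocytes, and 7.86, 8.53 and 8.14 in 3DHLK hepatocytes. Every CS array was above every other, and the remaining cultures overlapped. Sqle, the monooxygenase that commits squalene to sterols, had 10.44, 10.31 and 10.23 in HM, 10.93, 11.35 and 10.99 in CS, 10.14, 10.08 and 9.93 in 3DHL hepatocytes, and 9.83, 9.82 and 9.75 in 3DHLK hepatocytes. The 4 cultures of Sqle formed an order without overlap, from CS through HM and 3DHL to 3DHLK hepatocytes, and the lower level in 3DHLK hepatocytes than in HM passed the test, at -0.52 ± 0.16 (adjusted p 0.0201), while 3DHL against HM, at -0.27, did not.

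Fewer members were called in the 3D hepatocytes against HM than in CS against HM. Between 3DHL hepatocytes and HM 6 members were higher and 1 lower, against 7.04% and 4.70% of all genes, and between 3DHLK hepatocytes and HM 7 were higher and 5 lower, against 11.9% and 10.6%. Among the 18 enzymes Ggps1 and Tm7sf2, a sterol reductase, were higher in both, Ggps1 by 0.53 and 0.56 and Tm7sf2 by 0.55 and 0.50, and Sqle was lower in 3DHLK hepatocytes. Ggps1 had 9.05, 9.08 and 9.22 in HM, 8.82, 9.24 and 8.98 in CS, 9.62, 9.58 and 9.75 in 3DHL hepatocytes, and 9.71, 9.72 and 9.61 in 3DHLK hepatocytes, so that the 3D hepatocytes stood above both flat cultures. The other 2 probe sets of Ggps1 did not pass in these comparisons, and its rise in 3DHL was lost on leaving out 1 array in 5 of 6 cases. In 3DHL hepatocytes 4 of 11 hepatocyte markers were lower than in HM, with a median of -0.41 over the list. In 3DHLK hepatocytes 4 of 11 hepatocyte markers were lower (median -0.47), and 10 of 12 stellate markers (median 3.45), 7 of 10 macrophage markers (median 1.13) and 5 of 11 endothelial markers (median 0.21) were higher, with 1 endothelial marker lower. The part of these cells in the member changes was not tested. With values centred on 10 housekeeping genes, the 3DHLK counts became 6 higher and 10 lower and the 3DHL counts 5 and 2 (7 and 3 with cyclic loess), and leaving out HM replicate 1 or HM replicate 3 gave 6 calls in all. Leaving out 3DHL replicate 3 gave 4 calls for 3DHL, and leaving out 3DHLK replicate 3 gave 7 for 3DHLK. Of the 12 calls in 3DHLK hepatocytes, each of Soat1, Nr1h3, Npc2, Scarb1, Apoe, Lipa, Sqle and Tm7sf2 was lost on leaving out at least 1 of the 6 arrays, Soat1 and Nr1h3 in 5 cases, Npc2 and Scarb1 in 4, Apoe and Lipa in 3, Sqle in 2 and Tm7sf2 in 1. Fitted to the hepatocyte arrays alone, the counts were 8 higher and 1 lower in 3DHL and 9 higher and 7 lower in 3DHLK hepatocytes.

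Most members were lower in the 3D hepatocytes than in CS. In 3DHL hepatocytes 22 members were lower and 3 higher than in CS, where 9.03% and 12.8% of all genes were, and in 3DHLK hepatocytes 26 were lower and 4 higher, where 18.0% and 16.4% were. Of the 18 enzymes 16 were lower in 3DHL and 17 in 3DHLK hepatocytes, with median changes of -0.69 and -0.83, and Ggps1 was higher in both, by 0.64 and 0.67. Dhcr7, the last reductase of the pathway, had -0.38 in 3DHL hepatocytes and did not pass. The largest falls in both were those of Insig1, by 1.67 and 1.68, and Idi1, by 1.35 and 1.43. Hepatocyte markers were lower as well, 4 of 11 in 3DHL with a median of -0.46 and 6 of 11 in 3DHLK with -0.58, and in 3DHLK hepatocytes 7 of 10 macrophage markers, 5 of 12 stellate markers and 5 of 11 endothelial markers were higher than in CS, with 2 macrophage and 2 endothelial markers lower. The part of this in the enzyme changes was not tested. Without 1 array, the call of Sc5d in 3DHL and that of Soat1 in 3DHLK were lost in all 6 cases, and that of Abcg1 in 3DHLK in 5. These comparisons share the CS arrays with CS against HM and are not independent of it. Fitted to the hepatocyte arrays alone, they gave 24 lower and 5 higher in 3DHL and 27 lower and 5 higher in 3DHLK hepatocytes.

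**Figure D2:**
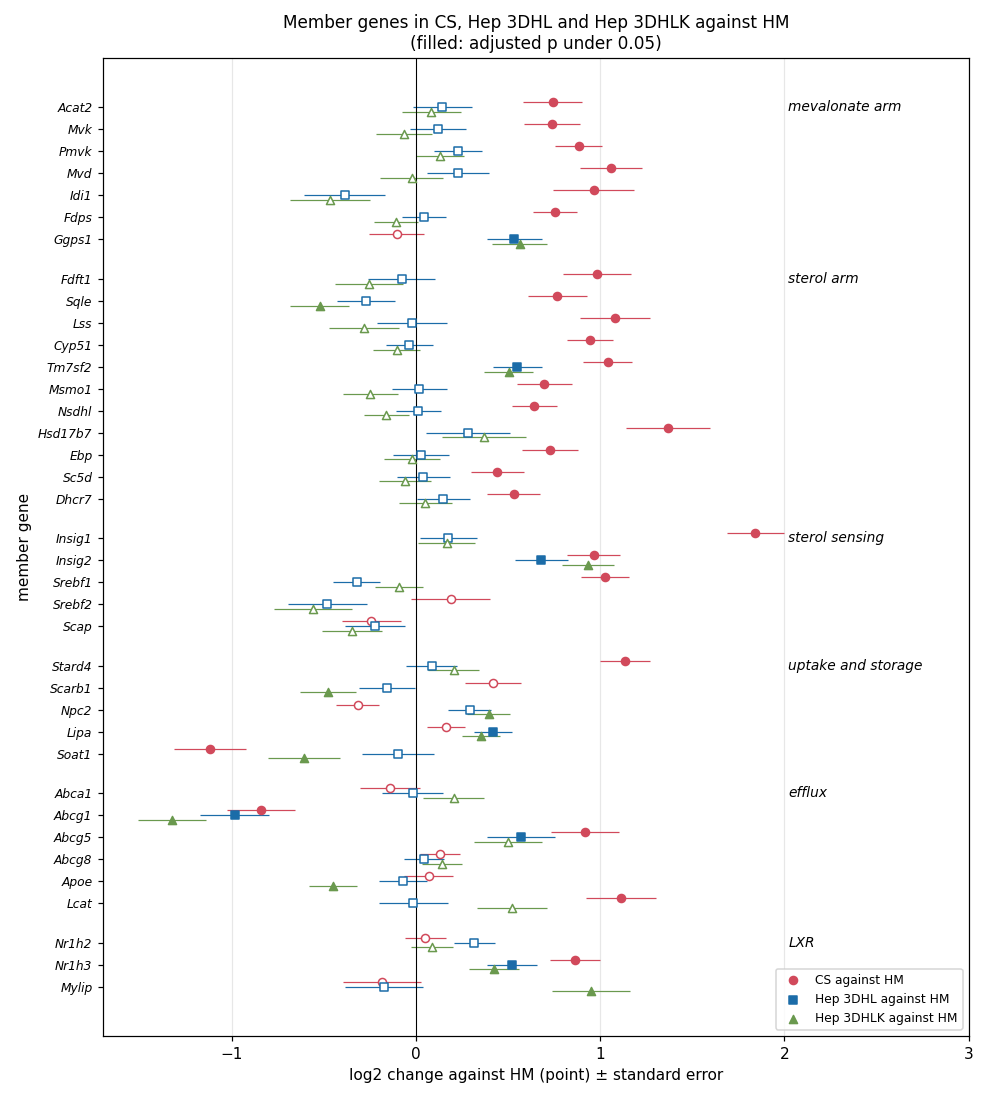
Each row is a member gene, ordered by role, and each point its log2 change against HM with the standard error, in CS (circles), 3DHL hepatocytes (squares) and 3DHLK hepatocytes (triangles), filled where the adjusted p is under 0.05. The circles of 17 of 18 synthesis enzymes lie between 0.44 and 1.37, while most squares and triangles lie near 0. All points of Abcg1 and the circle and triangle of Soat1 lie to the left, and the square of Soat1 lies near 0.

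The sterol sensors held the largest member change between hepatocyte cultures. Insig1, which retains Scap in the endoplasmic reticulum and is itself a target of the Srebf proteins, had 10.46, 10.11 and 10.30 in HM, 11.92, 12.43 and 12.06 in CS, 10.72, 10.42 and 10.27 in 3DHL hepatocytes, and 10.35, 10.70 and 10.33 in 3DHLK hepatocytes. CS was 3.59-fold above HM, at 1.84 ± 0.16 (SE, adjusted p 1.72e-08), and the other 3 cultures overlapped one another. Insig2, its relative with the same hold on Scap, had 10.58, 10.38 and 10.39 in HM, 11.45, 11.41 and 11.39 in CS, 11.26, 11.01 and 11.12 in 3DHL hepatocytes, and 11.40, 11.58 and 11.17 in 3DHLK hepatocytes. Here HM stood alone below the 3 other cultures, which were higher by 0.96, 0.68 and 0.93. Srebf1, the factor that drives mainly fatty acid genes, had 8.93, 9.07 and 9.09 in HM, 9.90, 10.16 and 10.10 in CS, 8.57, 8.71 and 8.83 in 3DHL hepatocytes, and 9.13, 8.78 and 8.90 in 3DHLK hepatocytes. It rose in CS by 1.03 ± 0.13, while the 3DHL arrays lay below HM with a change of -0.32 that did not pass and the 3DHLK arrays overlapped HM. Srebf2, the factor that drives mainly cholesterol genes, had 10.22, 9.89 and 10.09 in HM, 9.86, 10.60 and 10.30 in CS, 9.78, 9.35 and 9.61 in 3DHL hepatocytes, and 9.12, 9.89 and 9.50 in 3DHLK hepatocytes, and its change in CS, 0.19, did not pass although it was lower in both 3D cultures than in CS, by 0.67 and 0.75. The calls of Srebf2 against CS were lost on leaving out 1 array in 4 of 6 cases for 3DHL and 2 of 6 for 3DHLK. Scap, the escort of Srebf1 and Srebf2, changed by -0.24 in CS and passed in no hepatocyte comparison.

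Uptake, transport and storage members did not move as a group. Stard4, which carries sterol between membranes, had 7.86, 7.99 and 7.77 in HM, 8.83, 9.10 and 9.09 in CS, 7.94, 7.91 and 8.02 in 3DHL hepatocytes, and 8.0, 7.98 and 8.24 in 3DHLK hepatocytes, and rose in CS by 1.13 ± 0.14. It went with the synthesis enzymes, with CS above all other arrays. Soat1, the enzyme that esterifies cholesterol for storage, went the other way and had 11.09, 10.94 and 11.12 in HM, 10.10, 9.94 and 9.75 in CS, 10.96, 10.87 and 11.03 in 3DHL hepatocytes, and 10.45, 10.45 and 10.42 in 3DHLK hepatocytes. CS was 2.17-fold lower than HM, at -1.12 ± 0.20 (adjusted p 0.000219), 3DHLK hepatocytes lay between, and 3DHL hepatocytes overlapped HM. The lower level in 3DHLK hepatocytes, at -0.61 ± 0.20 (adjusted p 0.0275), no longer passed without HM replicate 1, HM replicate 3 or any 1 of the 3DHLK arrays, with adjusted p up to 0.0910. Its second probe set was also lower in CS, by 0.95. Scarb1, the receptor for high density lipoprotein, had 9.59, 9.50 and 9.57 in HM, 10.02, 10.01 and 9.88 in CS, 9.37, 9.38 and 9.43 in 3DHL hepatocytes, and 8.96, 9.20 and 9.07 in 3DHLK hepatocytes, and its change in CS of 0.42 did not pass while its fall in 3DHLK hepatocytes, by 0.48, did, though not without HM replicate 1 or 3 or without 3DHLK replicate 1 or 3. Npc2 and Lipa, the sterol carrier and the acid lipase of the lysosome, were higher in 3DHLK hepatocytes than in HM by 0.39 and 0.35, and Lipa also in 3DHL hepatocytes, by 0.42. Npc2 had 11.93, 11.74 and 11.82 in HM, 11.42, 11.60 and 11.52 in CS, 12.24, 12.05 and 12.07 in 3DHL hepatocytes, and 12.08, 12.33 and 12.27 in 3DHLK hepatocytes. CS was the lowest hepatocyte culture for Npc2, and 3DHLK hepatocytes were above it by 0.71 ± 0.12 (adjusted p 7.36e-05).

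Of the 6 efflux members Abcg1 moved most in the hepatocyte cultures. Abcg1, which loads cholesterol onto high density lipoprotein, had 9.85, 10.11 and 9.86 in HM, 9.02, 9.14 and 9.12 in CS, 8.81, 8.83 and 9.22 in 3DHL hepatocytes, and 8.55, 8.44 and 8.84 in 3DHLK hepatocytes. HM was above every other hepatocyte array, and Abcg1 was lower by 0.84, 0.99 and 1.33 in CS, 3DHL and 3DHLK hepatocytes. Its 3 probe sets disagreed: that on which these values rest is the brightest, and another had -0.02 in CS and did not pass. Lcat, the plasma enzyme that esterifies cholesterol on lipoproteins, had 9.54, 9.69 and 9.46 in HM, 10.37, 10.88 and 10.78 in CS, 9.69, 9.40 and 9.56 in 3DHL hepatocytes, and 10.24, 10.24 and 9.77 in 3DHLK hepatocytes, and rose in CS by 1.11 ± 0.19. The 3DHLK arrays lay between HM and CS for Lcat, with 0.52 that did not pass. Abcg5, a subunit of the exporter of sterols into bile, had 5.51, 5.60 and 5.60 in HM, 6.41, 6.39 and 6.65 in CS, 5.84, 6.34 and 6.23 in 3DHL hepatocytes, and 6.03, 5.86 and 6.32 in 3DHLK hepatocytes, and rose in CS by 0.92 ± 0.19. Abcg8, its partner, changed by 0.13, and both are dim here, with Abcg5 at the percentile 15.2 of all genes by mean. The rise of Abcg5 in 3DHL hepatocytes, by 0.57, had an adjusted p of 0.0487 and was lost on leaving out any HM array or 3DHL replicate 2 or 3, with an adjusted p of up to 0.20. Apoe, the main lipoprotein ligand for receptor uptake, was lower in 3DHLK hepatocytes than in HM by 0.45, and Abca1 passed in no hepatocyte comparison by its brightest probe set, at -0.14 in CS, though another probe set was lower by 0.52 there.

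The LXR group differed member by member. Nr1h3, the LXR of liver and macrophages, had 10.18, 10.16 and 10.19 in HM, 10.88, 11.07 and 11.16 in CS, 10.65, 10.70 and 10.74 in 3DHL hepatocytes, and 10.69, 10.51 and 10.59 in 3DHLK hepatocytes. HM was lowest, and Nr1h3 rose by 0.86 in CS, 0.52 in 3DHL and 0.42 in 3DHLK hepatocytes. Nr1h2, the LXR of most tissues, passed in none of these. Mylip had 4.92, 5.24 and 4.94 in HM, 4.97, 4.77 and 4.80 in CS, 5.0, 4.86 and 4.72 in 3DHL hepatocytes, and 5.80, 6.18 and 5.98 in 3DHLK hepatocytes. It stood out in 3DHLK hepatocytes alone, 1.93-fold above HM at 0.95 ± 0.21 (adjusted p 0.00213), at the percentile 8.30 of all genes by mean, and its probe set has no second on the array.

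3DHLK against 3DHL hepatocytes asks what KCs in the model change in the hepatocytes. Mylip was the single member called, higher by 1.13 ± 0.21 (adjusted p 0.000710), where 7.72% of all genes were higher and 3.76% lower. Its 3DHLK values of 5.80, 6.18 and 5.98 lay above the 3DHL values of 5.0, 4.86 and 4.72. In the same comparison 5 of 10 macrophage markers and 8 of 12 stellate and fibroblast markers were higher, with median changes of 0.82 and 2.12, as were 5 of 11 endothelial markers, with a median of 0.37. Tek and Flt1, receptors of endothelium, were at 5.44 and 7.20 in 3DHL hepatocytes and at 7.73 and 9.51 in 3DHLK hepatocytes. The endothelial list did not rise as a whole. Stab2, Kdr, Flt4 and Vwf had means of 5.69, 5.85, 7.73 and 5.57 in 3DHL hepatocytes. In 3DHLK hepatocytes they lay lower, at 5.46, 5.65, 7.27 and 5.31, though 0 of 11 endothelial markers passed as lower. Mylip was highest of all groups in KC monolayers, at 7.73 ± 0.71 (SD, n = 3), and the part of these cells in its rise was not tested. None of the 18 enzymes passed, with a median change of -0.10 against -0.08 over all genes. At an unadjusted p under 0.05, 0 of the 18 enzymes and 5 of the 37 members differed, but all genes were not counted at that threshold. Fitted to the hepatocyte arrays alone, Lcat (0.54), Scarb1 (-0.32) and Soat1 (-0.51) passed beside Mylip.

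**Figure D3:**
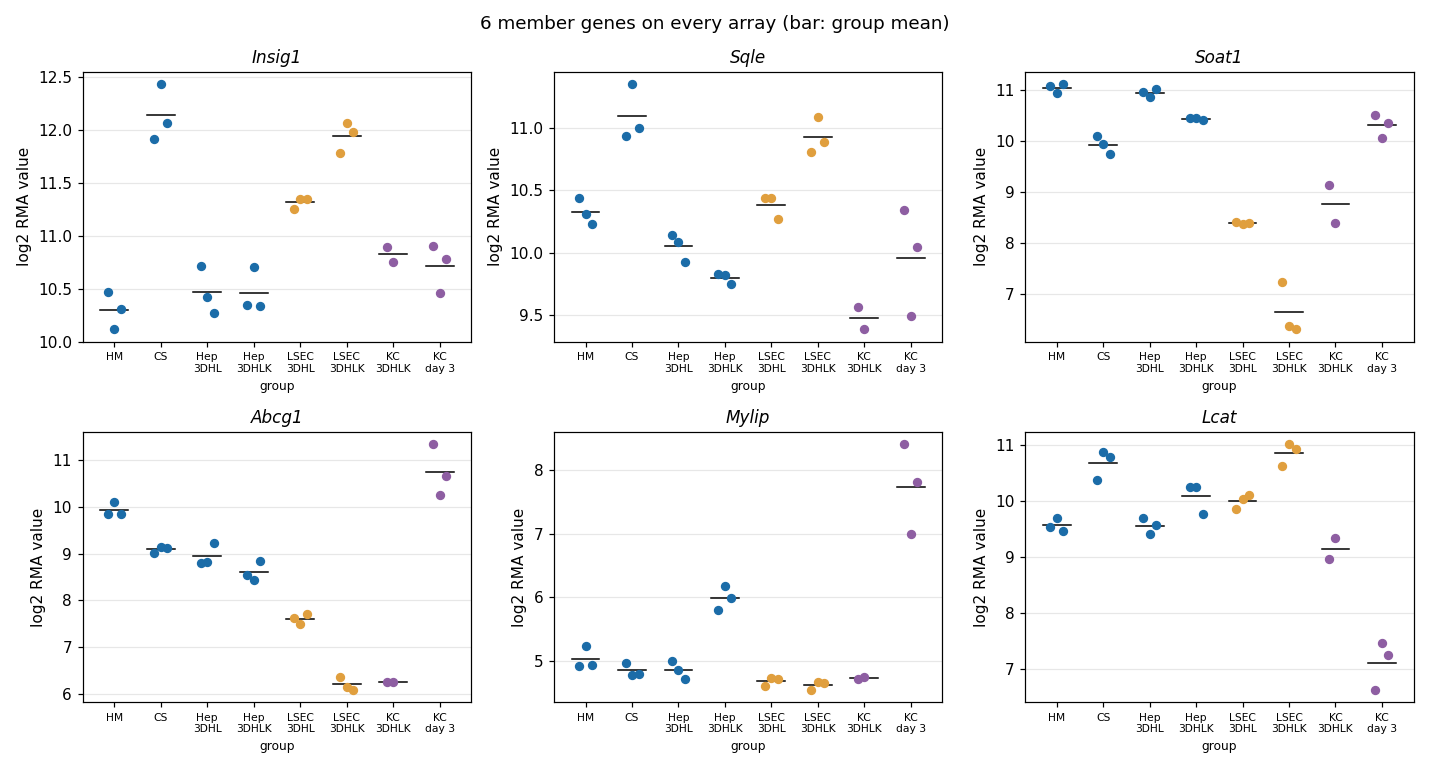
Each panel shows the log2 RMA value of a member on all 23 arrays, with hepatocyte groups in blue, LSEC fractions in orange, KC groups in purple and a bar at each group mean. Insig1 and Sqle share the high CS and LSEC 3DHLK arrays, Soat1 is lower in CS than in the other hepatocyte cultures and lowest in LSEC 3DHLK, Abcg1 is lowest in LSEC 3DHLK and KC 3DHLK, and Mylip is raised in Hep 3DHLK and in the day 3 KC monolayers.

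The LSEC fractions were compared between 3DHLK and 3DHL to ask what KCs change there. Of the 37 members 17 were higher in 3DHLK and 2 lower, where 3.58% and 3.89% of all genes were. Among the 18 enzymes 12 rose and none fell, with a median change of 0.55 against 0.04 over all genes. The enzyme mean was 9.92 ± 0.06 in 3DHL and 10.46 ± 0.02 in 3DHLK (SD, n = 3 each). Idi1, with 8.96, 8.95 and 9.23 in 3DHL LSECs, and 10.10, 10.12 and 10.27 in 3DHLK LSECs, rose by 1.12 ± 0.22 (adjusted p 0.00205), and Hsd17b7, with 7.85, 7.54 and 7.92 in 3DHL LSECs, and 8.70, 8.82 and 8.94 in 3DHLK LSECs, by 1.05 ± 0.23 (adjusted p 0.00526). Both were without overlap. Insig1, Insig2, Stard4, Lcat and Abcg5 rose as well, by 0.62 to 0.85, although the other 2 probe sets of Stard4 did not pass.

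The 2 that fell were Soat1 and Abcg1. Soat1 had 8.42, 8.38 and 8.39 in 3DHL LSECs, and 7.25, 6.39 and 6.31 in 3DHLK LSECs, a fall of 1.75 ± 0.20 (adjusted p 4.89e-06). Abcg1 had 7.61, 7.5 and 7.71 in 3DHL LSECs, and 6.36, 6.16 and 6.09 in 3DHLK LSECs, a fall of 1.41 ± 0.19 (adjusted p 3.49e-05), but neither of its other probe sets passed, at -0.19 and 0.03. Hepatocyte markers did not pass in this comparison, 0 of 11 with a median of 0.21 (2 of 11 at an unadjusted p under 0.05). Their mean per array was still 13.34 to 13.38 in 3DHL LSECs and 13.57 to 13.59 in 3DHLK LSECs, without overlap. Of the other lists 2 of 10 macrophage and 1 of 11 endothelial markers were higher, and 1 of 12 stellate markers was lower. The part of these cells in the member changes was not tested. The calls of Lss, Msmo1 and Ebp were lost on leaving out any 1 of the 6 arrays, and those of Fdft1, Sqle and Abcg5 in 5 of the 6 cases. Leaving out 3DHL LSEC replicate 1 or 3DHLK LSEC replicate 3 gave 9 members higher and 2 lower.

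The change with KCs differed between the LSEC fraction and the hepatocytes for 13 members. In a test of the difference of the 2 changes, 10 members were higher and 3 lower, where 3.51% and 6.81% of all genes were. All 10 were synthesis enzymes, 4 of the mevalonate arm and 6 of the sterol arm, with differences of 0.66 to 1.20. The largest was Idi1, which changed by 1.12 in LSECs and -0.08 in hepatocytes (difference 1.20 ± 0.31, adjusted p 0.0139), and next was Acat2, the thiolase that opens the pathway, by 0.88 and -0.06 (0.94 ± 0.23, adjusted p 0.00861). Acat2 had 9.38, 9.61 and 9.38 in 3DHL LSECs, 10.29, 10.40 and 10.32 in 3DHLK LSECs, 9.92, 9.79 and 10.02 in 3DHL hepatocytes, and 10.03, 9.87 and 9.65 in 3DHLK hepatocytes, with a step between the LSEC groups and overlapping hepatocyte groups. Soat1 differed by -1.23 and Abcg1 by -1.07, since both fell more in LSECs, and Mylip by -1.18 because it rose in hepatocytes alone. By the mean of all probe sets Soat1 no longer passed (-0.80, adjusted p 0.0840), nor did Abcg1 and Fdft1. Fdft1 was also lost with the replicate block and in 10 of 12 fits without 1 array, Lss in 8, Sqle in 5 and Msmo1 in 2. In the same test 4 of 12 stellate, 4 of 10 macrophage and 4 of 11 endothelial markers were lower, and 1 macrophage marker was higher. Without the KC monolayers in the model, 17 members were higher and 4 lower, and fitted to the 4 groups alone 17 and 3. The shares of all genes were not counted under these fits.

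**Figure D4:**
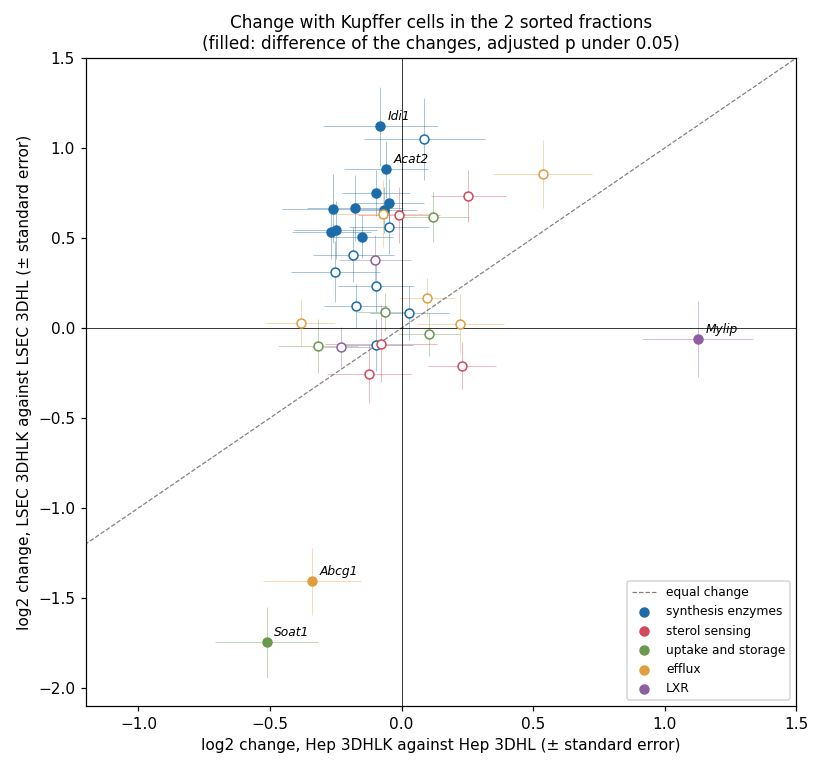
Each point is a member gene, with its log2 change from 3DHL to 3DHLK in hepatocytes on the horizontal and in LSECs on the vertical axis, bars for the standard errors, a dashed line of equal change, and filled where the difference of the changes has an adjusted p under 0.05. The 10 filled synthesis enzymes lie above the line at LSEC changes of 0.51 to 1.12 and hepatocyte changes of -0.27 to -0.05, Soat1 and Abcg1 lie below it, and Mylip at the right.

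Within each 3D model the LSEC fraction was set against the hepatocytes. In 3DHL 11 members were higher and 9 lower in LSECs, against 18.5% and 21.9% of all genes, and in 3DHLK 21 were higher and 7 lower, against 34.7% and 25.7%. Of the 18 enzymes 6 were higher and 3 lower in 3DHL, and 15 higher and 1 lower in 3DHLK, with a median of 0.83 against 0.11 over all genes. The rises in 3DHL were led by Srebf1, 9.76, 9.84 and 9.76 in LSECs against 8.57, 8.71 and 8.83 in hepatocytes (1.08 ± 0.13), and by Insig1 (0.84 ± 0.16). Those in 3DHLK were led by Hsd17b7 (1.69 ± 0.23) and by Fdft1, the squalene synthase, with 11.32, 11.52 and 11.46 in 3DHLK LSECs against 9.77, 9.82 and 9.72 in 3DHLK hepatocytes (1.66 ± 0.18). Neither pair of groups overlapped for these genes.

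The falls were larger. Soat1 was 5.88-fold lower in LSECs than in hepatocytes of 3DHL and 13.8-fold lower in 3DHLK, and Abcg1 2.54-fold and 5.31-fold lower, though another probe set of Abcg1 was higher in 3DHLK LSECs, by 0.57. Npc2, Lipa, Abca1 and Ggps1 were lower in LSECs of both models, by 0.83 and 0.97, 0.52 and 0.37, 0.73 and 0.93, and 0.68 and 0.62, though at least 1 further probe set of Abca1 and of Ggps1 did not pass in either model. In 3DHL LSECs 7 of 12 stellate markers were lower than in hepatocytes (median -0.92), 3 of 11 hepatocyte markers were higher (median 0.34), 2 of 10 macrophage markers were higher and 1 lower, and 1 of 11 endothelial markers was lower. In 3DHLK LSECs 11 of 12 stellate markers were lower (median -4.37), 6 of 10 macrophage markers were lower and 2 higher, 4 of 11 endothelial markers were lower and 3 higher, and 7 of 11 hepatocyte markers were higher (median 0.54). The part of these cells in the member changes was not tested. Housekeeping centring made the 3DHL counts 17 higher and 9 lower, and leaving out 3DHL hepatocyte replicate 3 made them 4 and 8.

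KCs of the 3DHLK model against KC monolayers gave the widest changes, between samples that differ in day, culture and marker content at once. Here 14 members were higher and 11 lower, against 44.5% and 20.8% of all genes. Abcg1 had 6.25 and 6.25 in 3DHLK KCs, and 11.34, 10.26 and 10.65 in KC monolayers, 22.6-fold lower in the 3DHLK fraction (-4.50 ± 0.21, adjusted p 2.80e-14). Mylip had 4.71 and 4.75 in 3DHLK KCs, and 8.40, 6.99 and 7.81 in KC monolayers, 8.04-fold lower. Abca1, Stard4, Npc2, Soat1 and Lipa were also lower, with changes from -2.52 for Abca1 to -1.23 for Lipa.

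Genes higher in the 3DHLK fraction were led by Lcat, with 8.97 and 9.33 in 3DHLK KCs, and 6.63, 7.46 and 7.24 in KC monolayers (2.04 ± 0.21), and by Nsdhl, a sterol dehydrogenase, with 10.66 and 10.76 in 3DHLK KCs, and 8.96, 8.46 and 8.72 in KC monolayers (2.0 ± 0.13). All 11 hepatocyte markers were higher there as well, with a median of 4.93, and all 10 macrophage markers lower, with a median of -4.68, so that day, culture and cell content cannot be told apart. Of the 18 enzymes 10 were higher and 3 lower, but with cyclic loess scaling the member counts became 9 higher and 17 lower, and Ebp, Fdps and Pmvk changed sign, and by the mean of all probe sets Fdft1 and Idi1 did. The enzyme mean was 9.56 ± 0.06 (SD, n = 2) and 9.20 ± 0.30 (SD, n = 3). Fitted to these 5 arrays alone, 8 members were higher and 8 lower, and the KC monolayer replicates also agreed least among each other, with correlations of 0.942 to 0.969 over all probe sets, against 0.987 to 0.998 in the other groups.

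Genes next to the pathway were taken as a list of 29, of which 26 were measured: the fatty acid enzymes that Srebf1 drives, bile acid enzymes, sterol carriers, and the proteases and ligases that process Srebf and Insig proteins. In CS 12 of 26 were higher than in HM and 1 lower, where 11.1% and 10.7% of all genes were. The largest rise was that of Fads2, the desaturase for long unsaturated fatty acids, by 2.27, and the fall was that of Lipc, hepatic lipase, by 1.27. Cyp7a1 and Cyp8b1 of bile acid synthesis also rose there, by 2.22 and 1.78, and so did Fasn and Acaca of fatty acid synthesis, by 1.40 and 1.11. In 3DHL hepatocytes 1 was higher and 2 lower than in HM (7.04% and 4.70% of all genes), with Nceh1, a cholesteryl ester hydrolase, at 0.73 and Lipc at -1.64. In 3DHLK hepatocytes 8 were higher and 7 lower (11.9% and 10.6% of all genes), led by Cyp8b1 at 1.73 and Lipc at -1.89.

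Against CS 13 of the 26 were lower in 3DHL and 11 in 3DHLK hepatocytes (9.03% and 18.0% of all genes), both led by Fads2, with changes of -3.10 and -2.93, while 1 and 4 rose (12.8% and 16.4% of all genes), led by Nceh1 at 0.97 and by Lrp1, a lipoprotein receptor, at 1.57. From 3DHL to 3DHLK hepatocytes 7 were higher and 1 lower (7.72% and 3.76% of all genes), with Cyp7a1 at 1.74 and Nceh1 at -0.51. That comparison also has the higher macrophage, stellate and endothelial markers given above. From 3DHL to 3DHLK LSECs 4 rose, led by Elovl6, a fatty acid elongase, at 1.12, and Lipc fell by 0.72, where 3.58% and 3.89% of all genes were higher and lower. LSECs against hepatocytes gave 7 higher and 5 lower in 3DHL (18.5% and 21.9% of all genes), led by Fads2 at 2.83 and Nceh1 at -1.86, and 7 higher and 9 lower in 3DHLK (34.7% and 25.7% of all genes), led by Fads2 at 3.17 and Lrp1 at -1.83. In KCs 11 were higher and 5 lower than in monolayers (44.5% and 20.8% of all genes), led by Apoa1, the main protein of high density lipoprotein, at 6.54 and Pltp, a phospholipid transfer protein, at -3.79. The LSEC and hepatocyte changes differed for 5 neighbours (3.51% of all genes higher and 6.81% lower), Nceh1 at 0.94 and 4 below 0, led by Lrp1 at -1.54.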

How the data were processed

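The 37 members, the lists of neighbouring genes and markers, the motifs and the tests were chosen with earlier results of these data known. Arrays were checked by the authors with Simpleaffy and processed in R with RMA (version not given in the sources used here). RMA subtracts background, equalises the distributions of the arrays and summarises probes, so each deposited value is on the log2 scale, 1 per probe set, and no further scaling was applied. Array medians were 7.41 to 7.53. The precision is limited by 2 or 3 arrays per group. RNA had been amplified from small amounts per the labels, which give no paired design. Only 2 KC samples of the 3DHLK model passed the authors' check of RNA quality.

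Of 31099 probe sets, 20832 name 1 gene, 436 several and 9831 none in the platform annotation, and 57 controls were left out. Genes were tested with limma 3.58.1 in R 4.3.3 (lmFit on 8 group means with all 23 arrays, contrasts, eBayes) at an adjusted p of 0.05, Benjamini-Hochberg over the 14217 genes. Errors are standard errors of the fit, or SD where stated. Named members are, in each role, the 3 (2 for LXR) that passed the F test with the widest range of hepatocyte means, and in each comparison the 2 largest rises and falls that passed. For neighbours the largest rise and fall are named, and Cyp7a1, Cyp8b1, Fasn and Acaca in CS were named after their values were seen, as were the members Lcat, Scarb1 and Soat1 in the fit to hepatocyte arrays. The code was tested on simulated data.

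Alternatives tried: fits on the compared arrays alone, leaving out the KC monolayers, a replicate block, averaging a gene's probe sets, a filter at the 30th percentile of gene means (log2 7.15), cyclic loess, centring on 10 housekeeping genes, trended and robust eBayes, and leaving out each array in turn. Some genes of the pathway are not reported here. Promoters are those of RefSeq. Plots were made in Python 3.11.15 with matplotlib 3.10.9.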

Additional observations from a re-analysis of the deposited data

Results flagged for a closer look

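The change from 3DHL to 3DHLK differed between the LSEC fraction and the hepatocytes, by a test of the difference itself, for 13 of the 37 members. In the mevalonate arm the difference (LSEC change minus hepatocyte change, log2) was 0.94 for Acat2, 0.85 for Pmvk, 1.20 for Idi1 and 0.66 for Fdps. In the sterol arm it was 0.85 for Fdft1, 0.80 for Sqle, 0.93 for Lss, 0.72 for Cyp51, 0.74 for Tm7sf2 and 0.80 for Msmo1. For all 10 of these enzymes the LSEC change was above 0.50, and the hepatocyte change, at -0.27 to -0.05, did not pass. The median change of all genes in hepatocytes was -0.08. Picking genes by the difference also favours low hepatocyte changes. The adjusted p values ran from 0.00386 for Pmvk to 0.0388 for Fdft1, and the second probe sets of Fdft1 and Lss did not pass. The call of Fdft1 was lost with the replicate block, by the mean of all probe sets and in 10 of 12 fits without 1 array, that of Lss in 8, that of Sqle in 5 and that of Msmo1 in 2 of those 12. Outside the enzymes the difference was -1.23 for Soat1, -1.07 for Abcg1 and -1.18 for Mylip. Soat1 and Abcg1 fell in LSECs by 1.75 and 1.41 and had -0.51 and -0.34 in hepatocytes, neither of which passed, and their other probe sets did not pass for the difference, nor did either by the mean of all probe sets. Groups of 2 or 3 arrays are too small for a test of single arrays that stand apart.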

How the results depend on the processing

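Over 45 pairs of same-numbered hepatocyte and LSEC arrays, the deviations from the group means correlated between -0.36 and 0.34. The median was -0.03, and 5 pairs lay above 0.1. The labels give no paired design, and pairs from the same 3D model were not summarised apart from the others. Whether replicate numbers pair the fractions of a model was therefore not tested. With the replicate block the count for 3DHLK against 3DHL hepatocytes went from 1 to 2 members, and the other counts of members called stayed within 1.5 times. For the same comparison the count was 4 on the hepatocyte arrays alone and without the KC monolayers, 3 with the mean of all probe sets, 2 with housekeeping centring and with the trended eBayes, and 0 with the filter on low values, which removes Mylip. For KCs the count fell from 25 to 16 on the arrays compared alone, and for the difference between LSEC and hepatocyte changes it rose from 13 to 20 on the arrays compared and 21 without the KC monolayers. The cause of these shifts was not tested. Leaving out 1 array in turn gave 30 to 33 members for the F test (33 with all), 24 to 25 for CS against HM (26), 4 to 5 for 3DHL against HM (7), 6 to 11 for 3DHLK against HM (12), 22 to 24 for 3DHL against CS (25), 25 to 28 for 3DHLK against CS (30), 1 to 2 for 3DHLK against 3DHL hepatocytes (1), 11 to 15 for LSECs of 3DHLK against 3DHL (19), 12 to 17 and 27 to 29 for LSECs against hepatocytes in 3DHL and 3DHLK (20 and 28), 21 to 27 for KCs (25) and 9 to 15 for the difference of changes (13). Over all members called in any comparison, 3560 checks under an alternative left 3315 past the threshold and 245 not, and the sign turned in 6: Ebp, Fdps and Pmvk with cyclic loess in KCs, and by the mean of all probe sets Fdft1 and Idi1 in KCs and Scap in LSECs against hepatocytes of 3DHL. For the members that the naming rule chose in each comparison, 896 of 908 checks kept direction and call and 12 the direction only. The 12 concern Abcg5 in 3DHL against HM, Soat1 in 3DHLK against HM and Soat1 in the difference of changes. Housekeeping centring shifted the median of all genes by -0.12 in 3DHLK against HM, and cyclic loess by -0.15 in KCs. Without detection calls, dim members such as Mylip and Abcg5 have only the arrays' spread as a guide.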
